A study of Danio rerio with 27 samples.

Results

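The comparison described here was the transcript response of zebrafish larvae to cold while p38 kinases were inhibited. It was defined by treatment and temperature alone, as larvae held for 12 h at 10 °C in 50 µM SB203580 (10C-SB) against larvae held for 12 h at 28 °C in the same compound (28C-SB). It takes in 6 of the 27 libraries of the series, 3 in each group, and all 24101 genes of the deposited table. Because both groups carried the inhibitor, the comparison measures temperature under SB203580 and not the effect of SB203580 itself. All libraries used here came from pooled whole larvae of the AB strain, a common laboratory wild type, that were 96 h post fertilization when exposure began; how many larvae went into a pool is not given in the sources used here. The other groups used for comparison were larvae at the same temperatures and for the same 12 h in the vehicle DMSO at 0.1% (28C-DMSO and 10C-DMSO), in 0.5 µM AS1842856, an inhibitor of the transcription factor Foxo1 (28C-AS and 10C-AS), or in 5 µM PD0325901, an inhibitor of the kinase MEK (28C-PD and 10C-PD). The inhibitors were dissolved in DMSO, so all of these groups carried the solvent. An untreated group at 28 °C (96hpf), with neither inhibitor nor DMSO, gave levels at the start of exposure for some genes. Development during the 12 h at 28 °C is part of every comparison of the temperatures and cannot be told apart from cold. Dead fish were taken out before sampling, so every value describes larvae that were alive when sampled. In the study SB203580 lowered the phosphorylation of p38 in the cold only in part, and no measurement used here gives the kinase activity of p38 that remained.

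p38 kinases are mitogen-activated protein kinases that are switched on by cytokines and by physical stress, including osmotic and temperature stress. They are phosphorylated by the kinases MKK3 and MKK6, and they act on transcription factors such as ATF2, on the kinases MK2 and MK3, which prolong the life of AU-rich messenger RNAs, and on MSK kinases, which phosphorylate CREB and histone H3 at early response genes. SB203580 occupies the ATP pocket of p38α and p38β, the proteins that mapk14 and mapk11 encode, and has little effect on p38γ and p38δ.

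Levels are given as scaled TPM, which is TPM (the share of each gene among the transcripts of a library, corrected for length) divided by a size factor, and values of libraries are in the order of replicates 1, 2 and 3. Changes are log2 differences ± SE on the log2(scaled TPM + 1) scale, which understates changes of low genes. Calls required both an adjusted p of no more than 0.05 (limma, Benjamini-Hochberg) and a 1.5-fold change. TPM keeps no read depth, so the depth of the libraries is unknown. The study calls its replicates biological, but whether the 3 libraries of a group were raised apart is not said in the labels. The p-values rest only on the spread among them, which may not cover separately raised larvae. Across all 27 libraries the size factors ran from 0.940 to 1.11, and the first principal component held 44.0% of the variance. The 6 SB203580 libraries sat close together, with a lowest correlation to a library of the same group of 0.974 to 0.977. Mitochondrially encoded genes took 9.22% to 9.87% of TPM in the 28C-SB libraries and 10.0% to 11.4% in the 10C-SB libraries. Replicate 1 of 10C-DMSO stood apart in its group by a mitochondrial share of 8.42%, against 11.2% and 11.4% in replicates 2 and 3. Its lowest correlation, 0.966, was that with replicate 3 and so marks neither of them alone. Replicate 1 of 28C-DMSO had a share of 7.30%. Neither first DMSO library belongs to the SB203580 groups, but both enter the estimate of spread that all groups share.

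Larvae in SB203580 responded to 12 h at 10 °C with a broad change that was led by early response transcription factors, clock repressors and histone genes. Of 24101 genes, 3909 (16.2%) were called, 2264 (9.39%) higher and 1645 (6.83%) lower at 10 °C. The rises were larger than the falls, since 298 of the 332 genes that changed over 4-fold rose. The 3 libraries of one temperature did not overlap the 3 of the other in 3813 of the called genes (97.5%) and in 12341 of all genes (51.2%). The median change over all genes was -0.0016.

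The largest rise by the rule used to name genes was that of fosab, a zebrafish Fos, which pairs with Jun proteins to form the transcription factor AP-1. Its level was 1.63, 1.46 and 1.90 scaled TPM in the 28C-SB libraries and 277, 326 and 317 in the 10C-SB libraries. The warm libraries held almost no transcript and every cold library was far above them, with a change of 6.85 ± 0.17 (adjusted p = 7.11e-18). fosl1a, which encodes another Fos family protein, went from 0.478, 0.181 and 0.247 to 46.2, 51.1 and 55.0, a change of 5.32 ± 0.19. atf3, a transcription factor that many stresses induce, went from 2.25, 1.59 and 2.10 to 83.3, 87.2 and 100.3, a change of 4.94 ± 0.12. In both, no cold library came near the warm range, though the naming rule already required groups that do not overlap. junbb, a Jun family member, was at 8.21, 8.32 and 10.8 in the warm and at 252, 249.7 and 238 in the cold, a change of 4.62 ± 0.11. ptgs2b encodes a cyclooxygenase, the enzyme that starts prostaglandin synthesis and whose messenger is a known target of p38 signaling in mammals. It was at 1.98, 1.77 and 2.17 at 28 °C and at 87.8, 89.5 and 113 at 10 °C, a change of 5.03 ± 0.23 (adjusted p = 1.17e-13).

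The clock genes among the largest rises encode repressors. per1b, a Period gene, was at 3.85, 3.41 and 3.56 in 28C-SB and 127, 124 and 121 in 10C-SB, a change of 4.76 ± 0.06. bhlhe40, which encodes a repressor that binds E-boxes, was at 9.75, 9.05 and 9.92 and 288, 280.4 and 282, a change of 4.75 ± 0.06. nr1d1, the gene for the nuclear receptor Rev-Erbα, was at 11.8, 11.4 and 12.1 and 316, 310.0 and 296, a change of 4.59 ± 0.09. In each of these 3 genes the libraries of a temperature lay close together and far from those of the other. The untreated 96hpf group had means of 20.01 scaled TPM for per1b, 52.2 for bhlhe40 and 36.6 for nr1d1. The 28C-SB means were 3.61, 9.57 and 11.8, so the gap between temperatures included a fall below that start at 28 °C. The 10C-SB means of 124, 283 and 307 were above the start. The 96hpf group stands for the start and the SB203580 groups for 12 h later, so the time of day may differ too. Its part in the gaps from the start was not tested. The remaining large rises were egr4, an early growth response factor, at 4.75 ± 0.10, the histone genes hist2h3c at 4.71 ± 0.32 and hist1h2ba at 4.70 ± 0.18, and mrnip, whose human counterpart binds the MRN complex of DNA repair, at 4.62 ± 0.20.

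**Figure D1:**
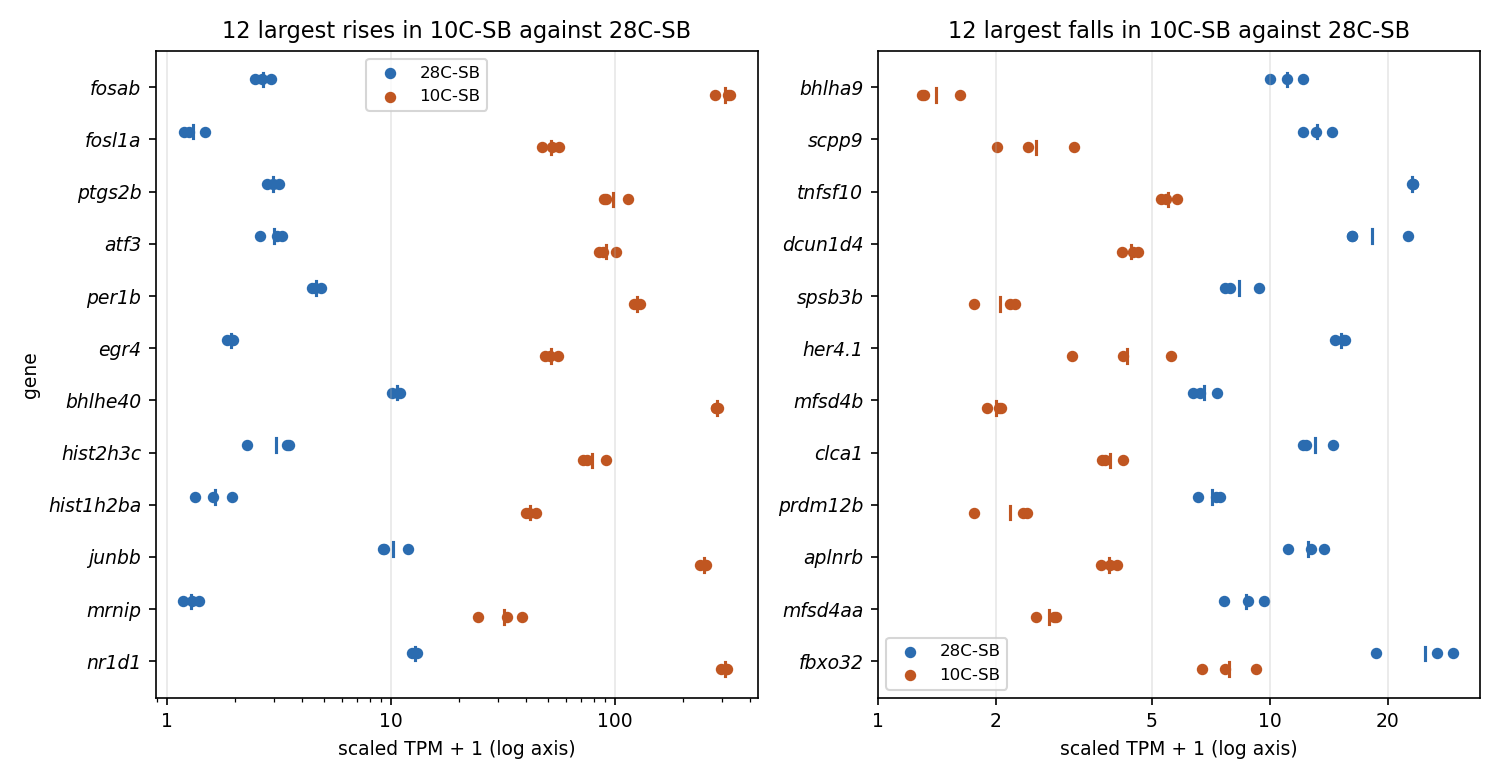
Scaled TPM + 1 on a log axis in each of the 3 28C-SB and 3 10C-SB libraries for the 12 largest rises and the 12 largest falls among genes the naming rule admits, with 1 point per library and a bar at the mean of 3. The rule admits only genes in which the libraries of the temperatures do not overlap. The rises, from 4.59 to 6.85 on the log2 scale, are larger than the falls, from -1.65 to -2.98.

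The falls were smaller than the rises. bhlha9, which encodes a helix-loop-helix factor known from limb development in humans and mice, went from 11.2, 9.02 and 10.1 in 28C-SB to 0.619, 0.300 and 0.308 in 10C-SB, a change of -2.98 ± 0.16. scpp9, a gene of the secretory calcium-binding phosphoproteins of mineralised tissue, went from 13.4, 11.2 and 12.1 to 1.42, 1.02 and 2.17, a change of -2.41 ± 0.19. Both were low in every cold library. tnfsf10, which encodes the death ligand TRAIL, was at 22.2, 22.1 and 22.2 in the warm and at 4.28, 4.45 and 4.79 in the cold, a change of -2.07 ± 0.06 (adjusted p = 2.11e-16). her4.1, a target of Notch signaling in neural progenitors, was at 13.7, 14.6 and 14.4 and 3.22, 4.62 and 2.13, a change of -1.86 ± 0.16. aplnrb, a receptor for apelin, was at 12.8, 10.2 and 11.7 and 3.08, 2.91 and 2.71, a change of -1.68 ± 0.09. fbxo32 encodes atrogin-1, a ubiquitin ligase of muscle wasting whose gene is a known FoxO target in mammals. It spread more in the warm, at 28.4, 25.8 and 17.7, than in the cold, at 5.71, 6.68 and 8.21, with a change of -1.65 ± 0.24. The other 6 largest falls were between -1.67 and -2.03, in dcun1d4, spsb3b, mfsd4b, clca1, prdm12b and mfsd4aa. The untreated 96hpf group had means of 0.579 scaled TPM for spsb3b, 3.50 for clca1, 3.39 for scpp9 and 9.10 for fbxo32. The 28C-SB means of these genes were 7.34, 12.1, 12.2 and 24.0, so the gap between temperatures included a rise above that start at 28 °C. For bhlha9, tnfsf10 and aplnrb the 96hpf means were 9.37, 16.2 and 10.3, nearer the warm levels than the cold ones.

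Genes were also read by lists of pathways and tissues, against the 9.39% of all genes that rose and the 6.83% that fell. Some genes are in more than 1 list, and a symbol carried by several gene identifiers counts once per identifier. Among immediate early factors, which cells transcribe within minutes of a stimulus from regulators already present, 40 of 54 genes passed as higher and 1 as lower with a median change of 1.82. Among ERK output genes and MAP kinase phosphatases, many of which restrain the kinases that induce them, 21 of 37 genes passed as higher and 1 as lower with a median of 0.96. In that list phosphatase transcripts led, with 4.09 ± 0.18 and 3.91 ± 0.12 for the identifiers that carry the symbol dusp5 and 2.90 ± 0.14 for dusp4. All 3 values are uncertain because the symbols are shared by several identifiers, among which the estimate could be split. Among circadian clock genes, 34 of 58 genes passed as higher and 9 as lower with a median of 1.35. The rise was led by per1b, bhlhe40, nr1d1 and cry2, the last a cryptochrome gene at 4.40 ± 0.13. The 96hpf mean of cry2, 13.98 scaled TPM, also lay between the means of 3.69 in 28C-SB and 97.9 in 10C-SB. Among histone genes, 39 of 52 genes passed as higher and 1 as lower with a median of 2.10. Histone genes are short, repeated and nearly identical, so their separate estimates are uncertain, as for 2 identifiers named hist1h4l at 4.82 ± 0.46 and 4.70 ± 0.31.

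**Figure D2:**
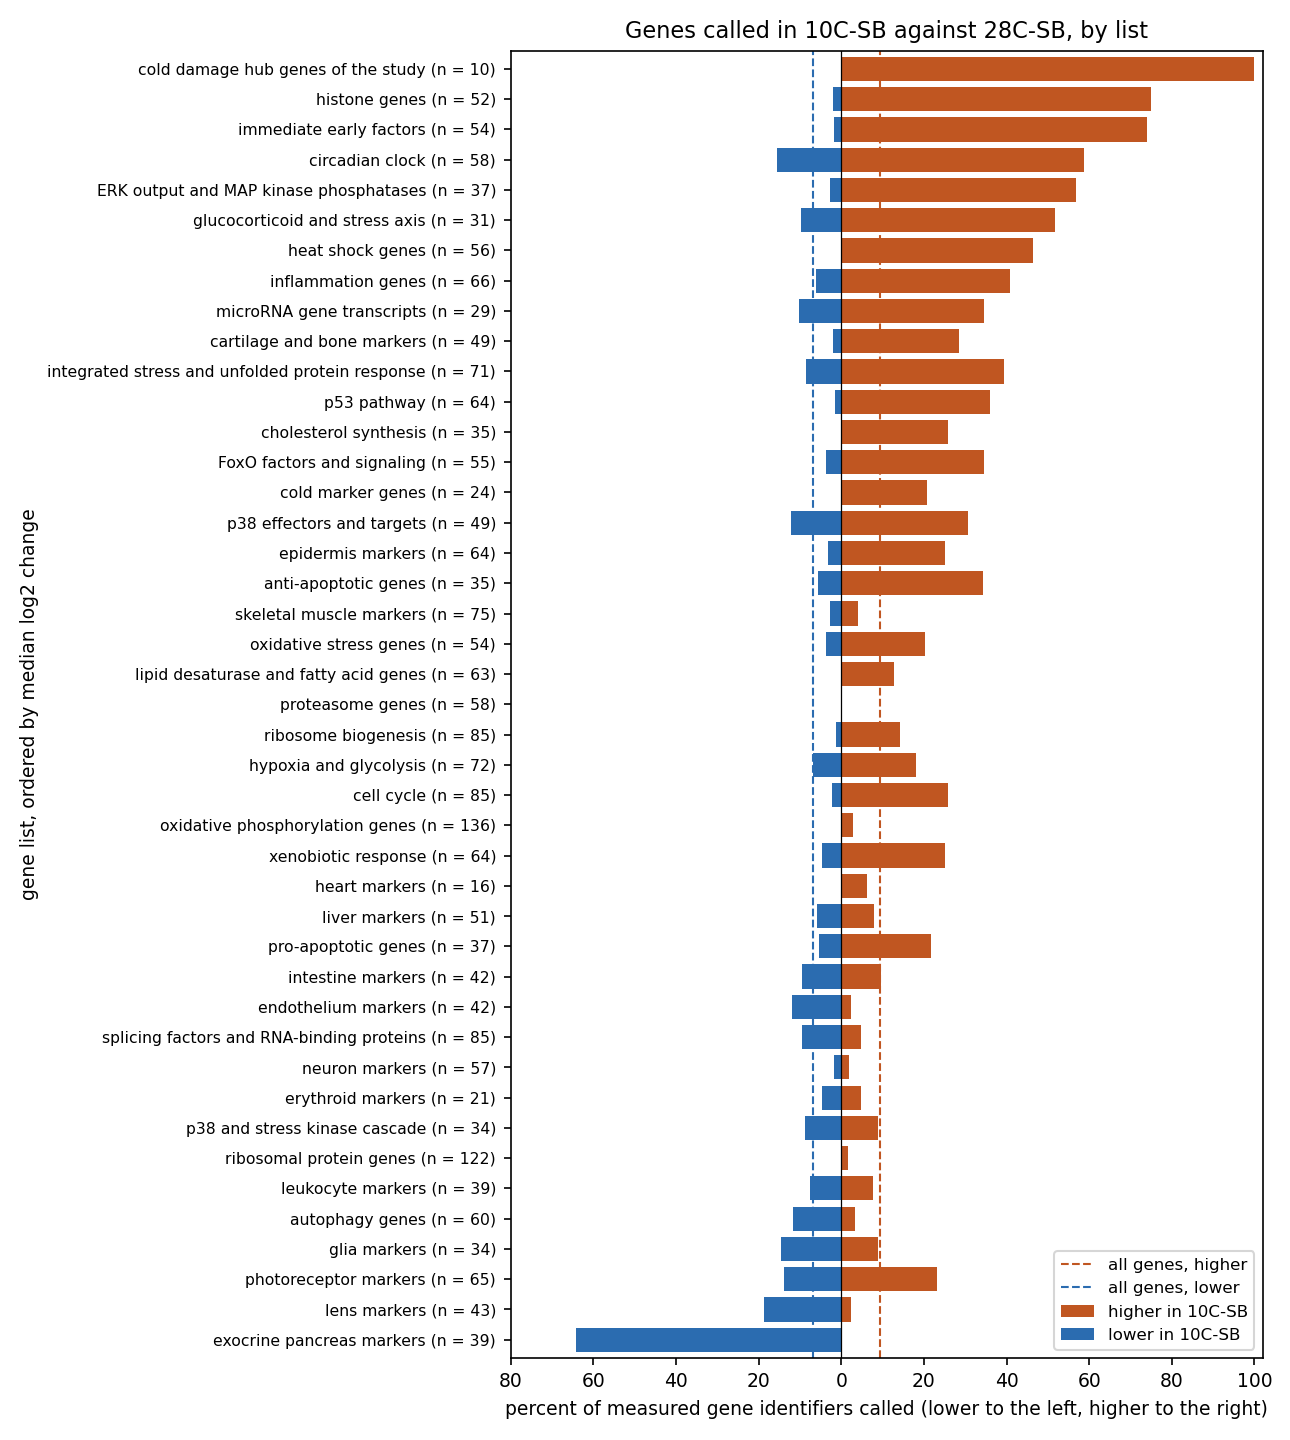
For each of 43 gene lists, the percent of measured members called higher (to the right) and called lower (to the left) in 10C-SB against 28C-SB, in order of the list's median log2 change; dashed lines mark 9.39% higher and 6.83% lower over all genes. The cold damage hub, histone, immediate early and clock lists stand at the top and the exocrine pancreas markers at the bottom.

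The kinases that SB203580 acts on were themselves measured. Of the identifiers that carry the symbol mapk14a, the gene of p38α, ENSDARG00000000857, was at 7.38, 8.82 and 7.59 in 28C-SB and at 13.3, 11.9 and 12.6 in 10C-SB, a change of 0.61 ± 0.12 (adjusted p = 4.35e-04). Its groups did not overlap, but the change was close to the 1.5-fold threshold and the call was lost under 5 of the 14 other settings tried, among them those without replicate 1 or 3 of 28C-SB or replicate 1 of 10C-SB, and over the 6 fits that left out a single library the change ran from 0.57 to 0.68. The other mapk14a identifier, ENSDARG00000112397, had -0.19 ± 0.10 and was not called, and the split between these copies is uncertain. mapk11, the gene of p38β, was at 10.3, 10.3 and 12.6 in the warm and at 7.94, 6.83 and 9.83 in the cold. The groups did not overlap, and the change of -0.40 ± 0.12 was not called. In DMSO it was called at -0.60 ± 0.12, and the difference of 0.20 ± 0.17 between the treatments was not (adjusted p = 0.82). mapk14b, mapk12a and mapk13, which encode further p38 kinases, had 0.26 ± 0.06, 0.00 ± 0.10 and 0.03 ± 0.12, and none was called. map2k6, the gene of the activating kinase MKK6, had 0.13 ± 0.08 and was not called. In the whole cascade list, 3 of 34 genes passed as higher and 3 as lower with a median of -0.06, against 16.2% of all genes called. The calls included traf6, a ubiquitin ligase that relays interleukin-1 and Toll-like receptor signals, which rose from 6.36, 5.04 and 5.83 to 14.4, 14.8 and 14.2, by 1.20 ± 0.09. traf2a, which relays tumor necrosis factor signals, fell with -1.17 ± 0.28, map2k7, a kinase upstream of JNK, with -0.64 ± 0.10 (-0.52, under the fold threshold, without replicate 2 of 28C-SB), and tab1, an activator of the kinase TAK1, with -0.64 ± 0.10.

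The 4 measured kinases of the MAPKAP family, which includes the p38 substrates MK2 and MK3, were chosen for mention after their values were seen. mapkapk2a had 0.27 ± 0.11 (adjusted p = 0.0649), mapkapk2b -0.14 ± 0.12 and mapkapk3 0.01 ± 0.12, and none of these was called. mapkapk5 fell with -0.66 ± 0.09 (adjusted p = 7.17e-06), from a mean of 7.18 scaled TPM in 28C-SB to 4.19 in 10C-SB.

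Among p38 effectors and known transcript targets, 15 of 49 genes passed as higher and 6 as lower with a median of 0.27. il1b, the cytokine interleukin-1β, was at 0.675, 0.451 and 0.546 in 28C-SB and 14.4, 10.2 and 10.3 in 10C-SB, a change of 3.01 ± 0.20. ptgs2a, the other cyclooxygenase gene of the list, was at 5.07, 6.94 and 6.82 and 49.6, 54.3 and 48.7, a change of 2.84 ± 0.17. Both were separated between temperatures by several fold in every library. mmp13a, a matrix metalloproteinase with a shared symbol, changed by 2.93 ± 0.58. Without the inhibitor, in 10C-DMSO against 28C-DMSO, il1b changed by 2.54 ± 0.20, ptgs2a by 2.88 ± 0.17 and ptgs2b by 5.14 ± 0.23, and none of these passed the test of the difference between SB203580 and DMSO (adjusted p = 0.731, 0.987 and 0.967). The 95% interval of the difference, not adjusted for the number of genes, was -0.12 to 1.06 for il1b, -0.55 to 0.47 for ptgs2a and -0.77 to 0.56 for ptgs2b.

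Lists of stress pathways outside the kinase cascade held more rises than falls. In the p53 pathway, 23 of 64 genes passed as higher and 1 as lower with a median of 0.34, among them the antiproliferative gene btg2 at 3.87 ± 0.10 and the stress gene gadd45bb at 3.06 ± 0.24. ccng1, a cyclin gene and the single fall in that list, has a shared symbol and zeros among its values, and its change of -3.06 ± 1.10 is uncertain; its call was lost in 5 of 6 fits that left out a single library, all but that without replicate 1 of 10C-SB, with adjusted p up to 0.131. Of pro-apoptotic genes, 8 of 37 genes passed as higher and 2 as lower, with rises in pmaip1 (Noxa) at 1.96 ± 0.17 and bbc3 (Puma) at 1.29 ± 0.11, both p53 targets in mammals. Of anti-apoptotic genes, 12 of 35 genes passed as higher and 2 as lower, with rises in the kinase genes pim3 at 1.97 ± 0.12 and pim1 at 1.96 ± 0.09 and in the Bcl-2 family gene mcl1a at 1.73 ± 0.06. Of the FoxO list, 19 of 55 genes passed as higher and 2 as lower, with pck1, the gene of the gluconeogenic enzyme PEPCK, at 2.57 ± 0.20. In the integrated stress and unfolded protein response, 28 of 71 genes passed as higher and 6 as lower, led after atf3 by cebpb, a factor of the acute phase, at 3.09 ± 0.12 and trib3, a pseudokinase that ATF4 induces, at 2.79 ± 0.09. Among heat shock genes 26 of 56 genes passed as higher and 0 as lower, with hsf2, a heat shock factor, at 2.02 ± 0.12, the Hsp70 gene hsp70l at 1.84 ± 0.22 and the Hsp90 gene hsp90aa1.1 at 1.77 ± 0.09. Of the hub genes that the study picked as central to cold damage, 10 of 10 identifiers, which carry 9 symbols, passed as higher and 0 as lower with a median of 2.53. The study chose them in a separate cold experiment that shares no library with those used here. Its criteria included a rise with time at 10 °C, so a rise was part of what they were chosen for.

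Inflammation and hormone response genes held some of the larger rises. In the inflammation list, 27 of 66 genes passed as higher and 4 as lower, among them socs3a, which encodes a brake on cytokine receptors, at 3.50 ± 0.17 and nfkbiaa, which encodes an inhibitor of NF-κB, at 3.12 ± 0.13. In the glucocorticoid list, 16 of 31 genes passed as higher and 3 as lower with a median of 0.59, and per1a, a Period gene that glucocorticoids induce in mammals, had 3.49 ± 0.13. In the hypoxia and glycolysis list, 13 of 72 genes passed as higher and 5 as lower, with pfkfb3, which encodes a stimulator of glycolysis, at 2.50 ± 0.29 and igfbp1a, which encodes a binding protein of insulin-like growth factors, at 3.14 ± 0.19. Among xenobiotic response genes 16 of 64 genes passed as higher and 3 as lower, with the glutathione transferase gene gstp2 at 2.30 ± 0.15, and among oxidative stress genes 11 of 54 genes passed as higher and 2 as lower, with txnipa, an inhibitor of thioredoxin, at 1.68 ± 0.05. Fatty acid genes gave 8 higher and 0 lower of 63 genes, with the secreted lipase inhibitor gene angptl4 at 2.17 ± 0.05 and elovl1a, an elongase of very long fatty acids, at 1.65 ± 0.12. In the cell cycle list, 22 of 85 genes passed as higher and 2 as lower, and the largest rise was in cdc6, a gene of replication licensing with a shared symbol and so an uncertain value, at 3.25 ± 0.26. Further rises were in e2f7 and e2f8, repressors of the S phase program, at 1.82 ± 0.14 and 1.65 ± 0.14, and in ccne2, a cyclin E gene, at 1.65 ± 0.16. Autophagy genes gave 2 higher and 7 lower of 60 genes, in which the cargo receptor gene sqstm1 rose with 1.43 ± 0.17 and ulk1a, which encodes a kinase that starts autophagy, fell with -0.97 ± 0.15. Ribosome biogenesis genes gave 12 higher and 1 lower of 85 genes and cold marker genes 5 higher and 0 lower of 24 genes. Splicing factors gave 4 higher and 8 lower of 85 genes, but 2 higher and 11 lower with TPM as deposited and 0 higher and 16 lower after quantile normalization, among the falls rbm5, a splicing regulator, at -0.80 ± 0.09 and srsf1b, an SR protein gene, at -0.77 ± 0.06.

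Whole larvae mix all tissues, and in such samples fewer cells of a type and less RNA per cell cannot be told apart. The tissue list with the median farthest from 0 was that of the exocrine pancreas, in which 0 of 39 genes passed as higher and 25 as lower with a median of -0.72. Its summed level was 40226 to 41943 scaled TPM in the 28C-SB libraries and 22940 to 25338 in the 10C-SB libraries. cpa1, the gene of a carboxypeptidase of digestive juice, was at 55.3, 55.8 and 56.4 in the warm and at 25.4, 27.1 and 24.0 in the cold, a change of -1.10 ± 0.08. The cold libraries were all well below the warm ones. cela1.3, an elastase gene, had -1.01 ± 0.15. In 10C-DMSO against 28C-DMSO the same list gave 0 higher and 31 lower of 39 genes with a median of -0.83. Liver markers gave 4 higher and 3 lower of 51 genes, and among the falls was cyp7a1, whose enzyme sets the pace at which bile acids are made, at 41.7, 44.1 and 43.6 in the warm and 16.3, 12.9 and 11.1 in the cold, a change of -1.63 ± 0.14. Intestine markers gave 4 higher and 4 lower of 42 genes, with vil1, which encodes the microvillus protein villin, higher at 1.02 ± 0.09 and slc6a19b, a transporter of neutral amino acids, lower at -0.96 ± 0.08.

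Cartilage and bone markers gave 14 higher and 1 lower of 49 genes with a median of 0.38, and their summed level was 3811 to 4171 scaled TPM in 28C-SB and 5259 to 5490 in 10C-SB. matn3a, a cartilage matrix gene, had 1.20 ± 0.31. Photoreceptor markers were split, with 15 higher and 9 lower of 65 genes and a median of -0.18. The cone phosphodiesterase gene pde6ha rose by 4.36 ± 0.13 and rcvrn3, a recoverin gene, by 1.86 ± 0.13, while opn1lw1, a red opsin gene with a shared symbol, fell with -1.81 ± 0.23. Lens markers gave 1 higher and 8 lower of 43 genes and endothelium markers 1 higher and 5 lower of 42 genes, among them the plasmalemma vesicle gene plvapa at -0.89 ± 0.13 and the apelin receptor gene aplnra at -1.32 ± 0.10. Epidermis markers gave 16 higher and 2 lower of 64 genes, with cldnb, a tight junction claudin, at 2.69 ± 0.09. Neuron markers gave 1 higher and 1 lower of 57 genes, and their summed level was 2810 to 2901 scaled TPM in 28C-SB and 2806 to 2894 in 10C-SB. Skeletal muscle markers gave 3 higher and 2 lower of 75 genes, heart markers 1 higher and 0 lower of 16 genes and erythroid markers 1 higher and 1 lower of 21 genes. Glia markers gave 3 higher and 5 lower of 34 genes and leukocyte markers 3 higher and 3 lower of 39 genes, and among microRNA gene transcripts, which such libraries measure only as precursors, there were 10 higher and 3 lower of 29 genes. Of the housekeeping lists, ribosomal protein genes gave 2 higher and 0 lower of 122 genes and proteasome genes 0 higher and 0 lower of 58 genes. Oxidative phosphorylation genes gave 4 higher and 0 lower of 136 genes, yet their summed level went from 123113 to 124658 scaled TPM in 28C-SB to between 137012 and 152228 in 10C-SB, as the mitochondrial share of the libraries also rose; the part of that share in the sum was not tested.

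The same temperatures without the inhibitor gave a response that shares no library with the one above and can be set beside it. In 10C-DMSO against 28C-DMSO, 3806 genes (15.8%) were called. Of the 3909 genes called under SB203580, 2653 were called in the same direction in DMSO, which is 67.9% of the SB203580 calls and 69.7% of the DMSO calls, and 3 were called in the opposite direction. Across all 24101 genes the log2 changes had a Pearson correlation of 0.834, a description in which genes are not independent replicates. Among the genes called in the same direction the median size was 0.95 under SB203580 and 0.94 in DMSO, and 1414 of them (53.3%) were larger under SB203580. Of the 332 genes that changed over 4-fold under SB203580, 298 were also called in DMSO. A further 1253 genes were called under SB203580 only, but 785 of them had the same sign and an unadjusted p under 0.05 in DMSO, and 0 of the 1253 passed limma's test of the difference. Of the 1150 genes called in DMSO only, 4 passed it.

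**Figure D3:**
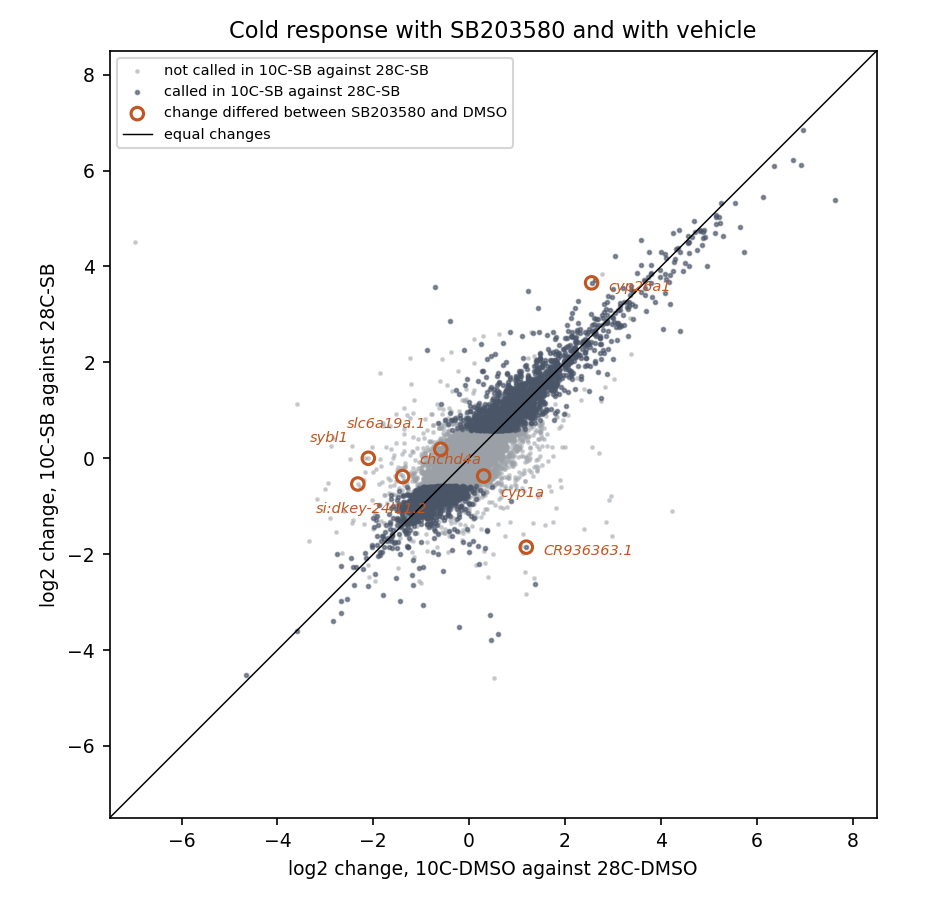
Log2 change at 10 °C against 28 °C of all 24101 genes in DMSO (horizontal axis) and in SB203580 (vertical axis), 1 point per gene, with the 7 genes whose change differed between treatments ringed. The points lie along the diagonal, with a Pearson correlation across genes of 0.834.

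The test of the difference itself, as the change under SB203580 minus the change in DMSO, called 7 genes (0.0290%), 5 with a more positive and 2 with a more negative change under SB203580. By limma, 9 genes had an adjusted p of 0.05 or less at any size, and 1952 of 24101 had an unadjusted p under 0.05. The count was 5 without both first DMSO libraries and 4 without replicate 1 or replicate 3 of 28C-DMSO, replicate 1 or replicate 3 of 28C-SB, or replicate 2 of 10C-SB, each left out alone. A miss does not show that the treatments acted alike, and the 95% interval of the difference, not adjusted for the number of genes, lay within 1.5-fold either way for 1825 of the 3909 called genes (46.7%) and for 14178 of all genes (58.8%). The interval reached a median of 0.42 on the log2 scale to either side of the difference among the called genes.

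Of the 7 genes, 3 have unshared symbols and values above 0 throughout. cyp26a1, which encodes the enzyme that breaks down retinoic acid, was at 3.92, 3.80 and 3.88 in 28C-DMSO and 23.6, 32.5 and 27.3 in 10C-DMSO, and at 2.10, 2.54 and 2.61 in 28C-SB and 35.9, 43.6 and 47.7 in 10C-SB. With the inhibitor it was lower in all 3 warm libraries and higher in all 3 cold libraries than without it. The change was 3.66 ± 0.13 under SB203580 and 2.55 ± 0.13 in DMSO, a difference of 1.11 ± 0.19 (adjusted p = 0.0266). The call was lost in 10 of 12 fits that each left out a single library of the 4 groups, all but those without replicate 2 of 10C-DMSO or replicate 1 of 10C-SB, with adjusted p from 0.013 to 0.116 and differences from 1.00 to 1.22, and also without both first DMSO libraries (0.99, adjusted p = 0.183). slc6a19a.1, a transporter gene of neutral amino acids, was at 17.6, 18.2 and 16.6 and 12.8, 9.95 and 11.1 in DMSO, a change of -0.59 ± 0.09, and at 11.9, 12.8 and 11.8 and 13.8, 14.1 and 14.1 under SB203580, a change of 0.19 ± 0.09. The difference of 0.78 ± 0.13 (adjusted p = 0.0266) lost its call in 11 of the 12 fits, all but that without replicate 1 of 10C-DMSO, with adjusted p from 0.019 to 0.108, but kept it without both first DMSO libraries (0.86, adjusted p = 0.0415). The warm libraries with SB203580 were below those with DMSO, and the cold ones above.

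cyp1a, a cytochrome P450 gene and the classical target of the aryl hydrocarbon receptor, kept its call in all 12 fits. Its level was 14.7, 15.7 and 15.9 in 28C-DMSO and 19.1, 19.5 and 19.1 in 10C-DMSO, against 27.9, 25.1 and 27.6 in 28C-SB and 19.3, 21.5 and 20.9 in 10C-SB. All 3 warm SB203580 libraries were above every DMSO library, while in the cold the treatments lay close together. The change was -0.37 ± 0.06 under SB203580, which is under 1.5-fold, and 0.30 ± 0.06 in DMSO, a difference of -0.67 ± 0.08 (adjusted p = 0.00125). Without both first DMSO libraries the difference was -0.64 (adjusted p = 0.012), and with the model limited to the groups compared the adjusted p was 0.074. The other 4 genes were chosen for mention after their values were seen and have shared symbols or zeros, so their values are uncertain. chchd4a differed by 1.01 ± 0.15, si:dkey-24l11.2, listed at 0 in 10C-DMSO, by 1.79 ± 0.26, sybl1, listed at 0 in both SB203580 groups, by 2.10 ± 0.27, and CR936363.1, which has zeros, by -3.05 ± 0.55. The call of CR936363.1 was lost in 11 of the 12 fits, all but that without replicate 2 of 10C-DMSO, with adjusted p up to 0.132, and without both first DMSO libraries (adjusted p = 0.183), while the other 3 kept theirs in all of these.

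**Figure D4:**
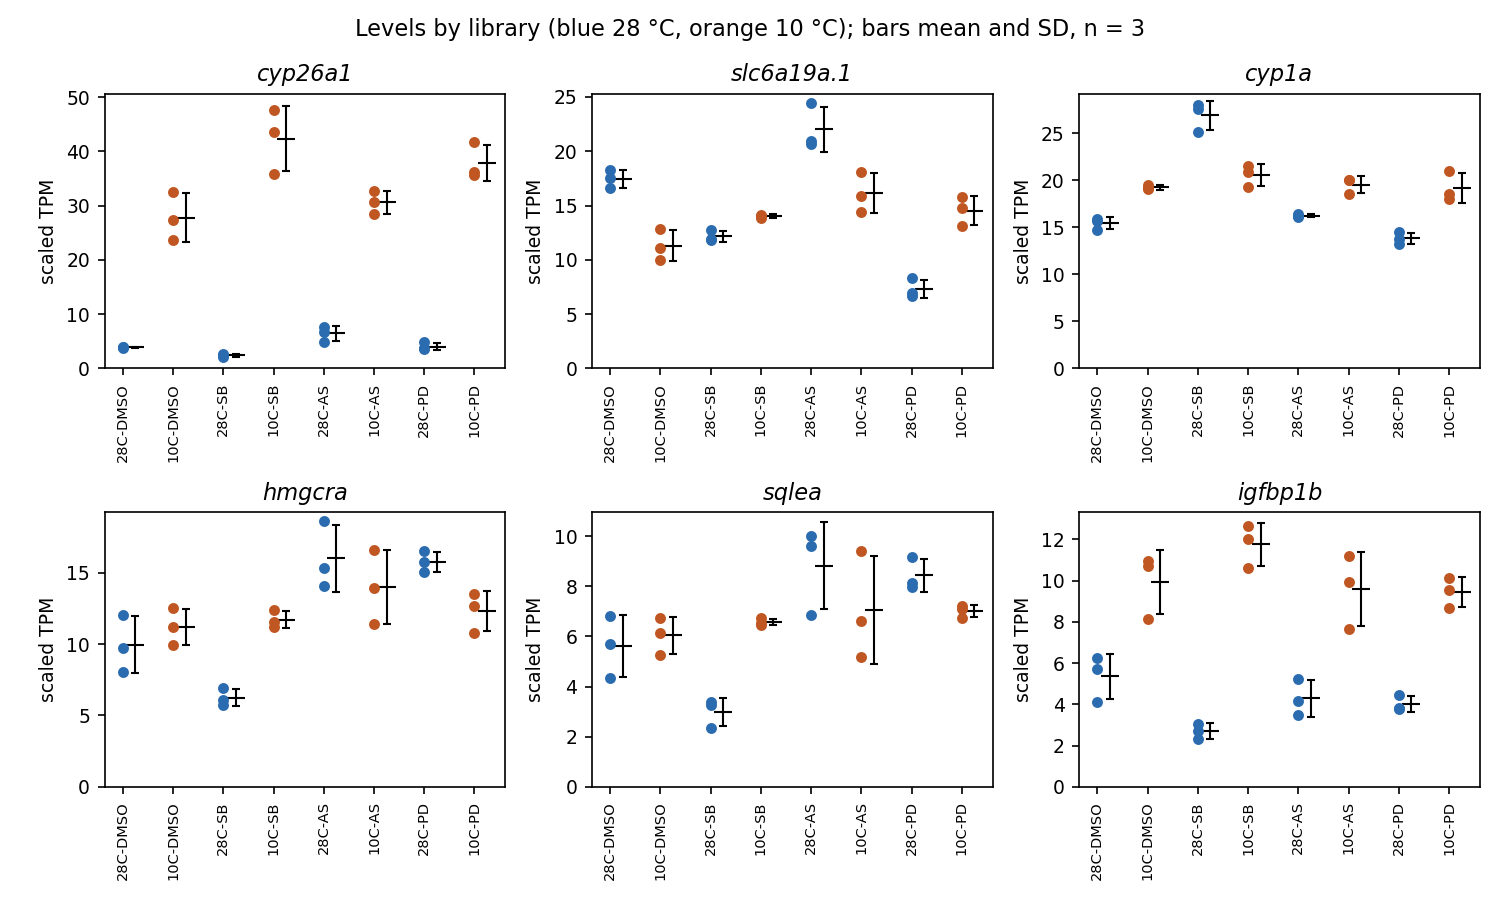
Scaled TPM of cyp26a1, slc6a19a.1, cyp1a, hmgcra, sqlea and igfbp1b in the 8 groups held for 12 h at 28 °C or 10 °C in DMSO, AS1842856, PD0325901 or SB203580, with 1 point per library and the mean ± SD of 3 libraries. In cyp1a the 28C-SB libraries stand above both DMSO groups, and in sqlea and hmgcra the 28C-SB libraries stand below both.

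A list with different counts of calls under the treatments was cholesterol synthesis, described here after its values were seen. Under SB203580 9 of 35 genes passed as higher and 0 as lower with a median of 0.33, and in DMSO 1 of 35 genes passed as higher and 2 as lower with a median of -0.01. hmgcra, the gene of the rate-limiting reductase of the pathway, was at 6.12, 5.70 and 6.91 in 28C-SB and 12.4, 11.5 and 11.2 in 10C-SB, a change of 0.81 ± 0.14, and at 12.1, 8.07 and 9.73 in 28C-DMSO and 9.93, 12.5 and 11.2 in 10C-DMSO; its symbol is shared by several identifiers, so its value is uncertain. The SB203580 groups did not overlap and the DMSO groups did. sqlea, the gene of squalene epoxidase, was at 3.38, 2.36 and 3.25 in 28C-SB and 6.72, 6.48 and 6.53 in 10C-SB, a change of 0.93 ± 0.16, against 6.83, 4.35 and 5.69 in 28C-DMSO and 5.27, 6.74 and 6.12 in 10C-DMSO, where the groups overlapped. The pattern was again one of low warm libraries under SB203580. Over the list, 30 of 35 members were lower in 28C-SB than in 28C-DMSO, with a median difference in level of -0.29, while 12 of 35 were lower in 10C-SB than in 10C-DMSO, with a median of 0.05. Over all genes 12237 of 24101 were lower in 28C-SB. The change under SB203580 minus that in DMSO was positive in 30 of 35 members, against 12268 of 24101 over all genes. It had an unadjusted p under 0.05 in 16 of 35, against 1952 of 24101 over all genes, but 0 passed the adjusted test (lowest adjusted p = 0.152 by limma). Without both first DMSO libraries it was positive in 29, with an unadjusted p under 0.05 in 10. Other lists were uneven too. The difference was positive in 51 of 58 proteasome genes, 35 of 39 exocrine pancreas, 8 of 43 lens and 12 of 57 neuron markers. By limma, 9, 6, 3 and 13 of these lists' members had an unadjusted p under 0.05. The lens share was below that of all genes. Members of a list are not independent replicates, so these counts, like those for cholesterol synthesis, are a description. Without both first DMSO libraries the difference was positive in 37 of 39 exocrine pancreas markers, with an unadjusted p under 0.05 in 16. Over all genes these counts were then 12283 and 2060 of 24101.

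For a few other named genes the change was also larger under SB203580, with a difference that was not called. List members were named for a large change under SB203580, a choice that favors such differences. Of the metabolic genes named above, igfbp1a differed by 0.92, but pfkfb3 by -0.23 and angptl4 by -0.10. igfbp1b, which encodes another binding protein of insulin-like growth factors, was at 2.73, 2.33 and 3.07 in 28C-SB and 12.0, 10.6 and 12.6 in 10C-SB, and at 6.23, 5.71 and 4.13 in 28C-DMSO and 8.16, 10.9 and 10.7 in 10C-DMSO. Its change was 1.79 ± 0.17 under SB203580 and 0.79 ± 0.17 in DMSO, and the difference of 1.00 ± 0.24 was not called (adjusted p = 0.179). fkbp5, a glucocorticoid-induced gene in mammals, had a difference of 1.01 ± 0.38 (adjusted p = 0.494), and pck1 had 0.94 ± 0.28 (adjusted p = 0.345).

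The genes that the study names for SB203580 were also measured. egr3, an early growth response factor, was at 12.1, 11.8 and 12.1 in 10C-SB and 16.8, 17.5 and 16.8 in 10C-DMSO, and at 1.77, 1.67 and 1.67 in 28C-SB and 2.10, 1.91 and 1.89 in 28C-DMSO. Every cold SB203580 library was below every cold DMSO library, as was every warm one below its DMSO counterparts. egr3 rose under SB203580 by 2.27 ± 0.07 and the difference of its change from DMSO was -0.34 ± 0.10, with a 95% interval of -0.56 to -0.12 and an adjusted p of 0.361. dusp2, a MAP kinase phosphatase gene, rose by 1.82 ± 0.09, with a difference of -0.31 ± 0.13 (adjusted p = 0.54). klf2b, a Krüppel-like factor gene, rose by 1.34 ± 0.08 with a difference of -0.12 ± 0.11, and tnfsf10 fell with -2.07 ± 0.06 and a difference of 0.39 ± 0.09 (adjusted p = 0.179). None of these 4 differences was called. The study instead compared 10C-SB with 10C-DMSO directly. There it reports egr3, dusp2 and klf2b as slightly lower and tnfsf10 as higher with the inhibitor. That is another contrast, and the test of the difference neither repeats it nor counters it. For tnfsf10 the levels were 2.73, 2.75 and 2.85 in 10C-DMSO and 4.28, 4.45 and 4.79 in 10C-SB. Among the genes with the largest rises the intervals of the difference were -0.62 to 0.39 for fosab, -0.23 to 0.11 for per1b and -0.33 to 0.29 for junbb. That of nr1d1 was -0.56 to -0.026. Among the hub genes jun had 0.16 to 0.46, otud1 -0.73 to -0.085 and the dusp5 identifier ENSDARG00000019307 -0.90 to -0.21. The intervals of the other hub identifiers lay on both sides of no change, and no hub difference was called.

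Set beside the inhibitor of MEK, the kinase upstream of ERK, the cold response under SB203580 differed in 335 genes (1.39%), 172 with a more positive and 163 with a more negative change under SB203580. This split depended on the scaling, since 340 of 460 calls were more positive with TPM as deposited. The differences from DMSO, AS1842856 and PD0325901 use the same 6 SB203580 libraries and are not separate measurements of them. junbb had changes of 4.62 ± 0.11 under SB203580, 4.64 ± 0.11 in DMSO, 3.62 ± 0.11 under AS1842856 and 2.29 ± 0.11 under PD0325901. fosl1a had changes of 5.32 ± 0.19 under SB203580, 5.25 ± 0.19 in DMSO, 4.38 ± 0.19 under AS1842856 and 3.14 ± 0.19 under PD0325901. Similar changes under SB203580 and in DMSO did not mean similar levels. For junbb the means were 247 in 10C-SB and 309 in 10C-DMSO, and 9.12 in 28C-SB and 11.5 in 28C-DMSO. For fosl1a they were 50.8 and 74.6, and 0.302 and 1.04. The change under the MEK inhibitor was the lowest of the 4 for both genes, and the difference from it was 2.33 ± 0.15 for junbb and 2.18 ± 0.27 for fosl1a. ptgs2b had a difference of 1.59 ± 0.32 and ier2a, an immediate early gene, of 1.70 ± 0.18. In the immediate early list the temperature change was larger under SB203580 than under PD0325901 in 18 of 54 genes and smaller in 0 by the test of the difference, and against AS1842856 in 12 and 0. A smaller change under PD0325901 could lie in the warm level, the cold level or both. atf3, with a called difference of 1.18, had means of 5.61 in 28C-PD and 1.98 in 28C-SB. Its cold means were close, at 88.7 in 10C-PD and 90.3 in 10C-SB. For junbb the means were 19.3 and 9.12 in the warm and 98.5 and 247 in the cold. For fosab the gap was mainly in the cold, with 2.06 and 1.67, and 142 and 307. A smaller change under AS1842856 did not mean a lower cold level. fosab had means of 7.81 in 28C-AS and 1.67 in 28C-SB, and of 436 in 10C-AS and 307 in 10C-SB. For junbb they were 24.7 and 9.12 in the warm and 313 and 247 in the cold. For egr4 they were 5.34 and 0.916, and 78.4 and 50.7. In the ERK output list the counts against PD0325901 were 2 larger and 8 smaller of 37. A larger change under PD0325901 need not mean a higher cold level. dusp4, a list member with an uncertain value and a difference that was not called (-0.42 ± 0.19), is an example. Its means were 0.919 in 28C-PD and 2.98 in 28C-SB, and 18.1 in 10C-PD and 28.9 in 10C-SB. The ETS factor gene etv4, a target of ERK signaling that had 0.46 ± 0.09 under SB203580, had 1.96 ± 0.09 under PD0325901.

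**Figure D5:**
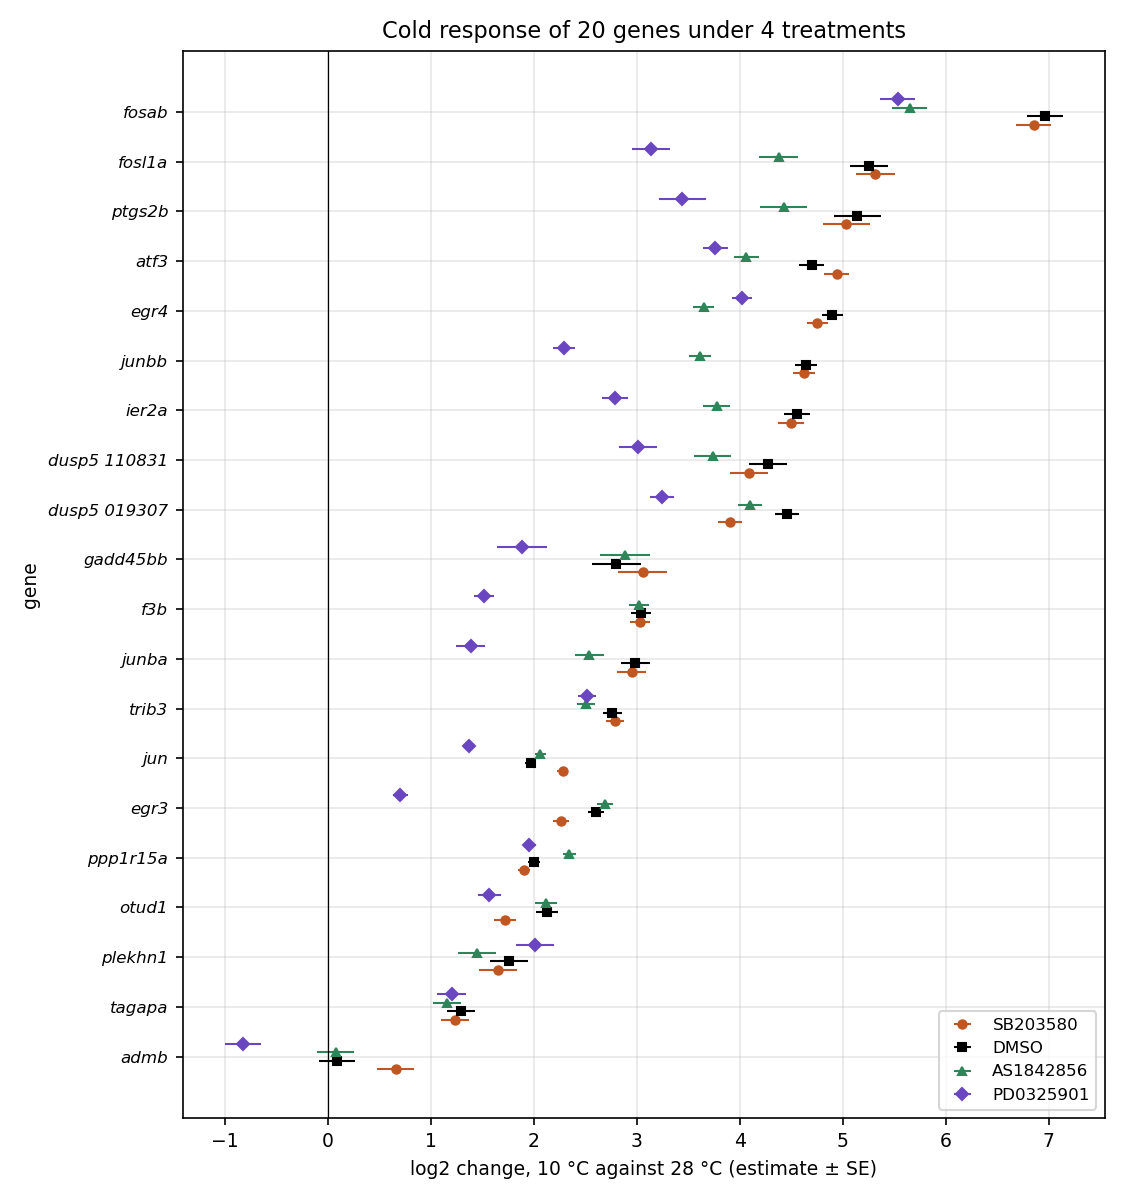
Log2 change at 10 °C against 28 °C, with its SE from the fit (3 libraries per group), of 20 genes in SB203580, DMSO, AS1842856 and PD0325901, 1 symbol per treatment. Plotted are the named immediate early factors, the study's hub genes and the named genes with a called positive difference from PD0325901. The last were picked for that difference, so their lower values under PD0325901 follow from the choice. For junbb the value is 4.62 in SB203580, 4.64 in DMSO and 2.29 in PD0325901.

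Against the Foxo1 inhibitor the difference was wider, with 2673 genes (11.1%) called, 1455 more positive and 1218 more negative under SB203580. A called difference could lie in the warm levels. dcun1d4 had means of 6.11 in 28C-AS and 17.3 in 28C-SB, but 3.71 in 10C-AS and 3.43 in 10C-SB. For clca1 they were 5.16 and 12.1, and 2.81 and 2.92. In her4.1 it lay in the cold, with 13.7 and 14.2, and 9.07 and 3.32. Of ribosome biogenesis genes, 60 of 85 were more positive and 0 more negative under SB203580, with a median difference of 0.87. Autophagy genes went the other way, with 1 more positive and 22 more negative of 60. Liver markers gave 2 and 16 of 51, and xenobiotic response genes 1 and 14 of 64. Median changes under SB203580, DMSO and AS1842856 were 0.20, 0.16 and -0.62 for ribosome biogenesis and -0.09, -0.16 and 0.35 for autophagy. For liver markers they were 0.14, 0.10 and 0.53, and for xenobiotic response genes 0.15, 0.08 and 0.39. dus2, which encodes a transfer RNA dihydrouridine synthase, had changes of 1.36 ± 0.31 under SB203580, 0.52 ± 0.31 in DMSO and -0.90 ± 0.31 under AS1842856. igfbp1a had changes of 3.14 ± 0.19 under SB203580, 2.22 ± 0.19 in DMSO and 0.96 ± 0.19 under AS1842856.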

How the data were processed

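RNA sequencing of whole larvae gave the 27 libraries, which were grouped by their titles, and no library was left out. RNA was extracted with TRIzol and a column kit. The study used Salmon 0.13.1 to assign reads to Ensembl zebrafish cDNA under GC, sequence and position bias correction, and tximport to sum them to genes. The authors deposited TPM values for 24101 genes, each at 1 TPM or more in all replicates of at least 1 group. In the deposited values 4293 identifiers share a symbol and 7928 values are 0, 1664 of them in the SB203580 libraries. TPM suits no count test. Values were divided by median-of-ratios size factors, and limma 3.58.1 in R 4.3.3 was run on log2(scaled TPM + 1), with 1 mean per group, trended priors and 18 residual degrees of freedom. Tests were two-sided, called at adjusted p of 0.05 or less and 1.5-fold (0.585 on the log2 scale). The fit was tested on simulated data. An exact permutation of 3 against 3 libraries cannot go below p = 0.1 and was not used. No set test was run.

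Named genes were the 12 largest called rises and the 12 largest called falls that had a group mean of 5 scaled TPM or more, no overlap of groups, and a symbol neither shared nor a clone name. Added were up to 4 called members per list, the p38 kinases and their activating kinases, genes the study names, and up to 8 genes each way for each difference between treatments. Not every gene under the rule is printed, and some are not reported here. The comparison, the lists and the rule were chosen with earlier results of these data known. Alternatives were other scalings and pseudocounts, a replicate block, library weights, a model of only the groups compared, a level filter and leaving out single libraries. Gene sequences were not used here, and a search of promoter motifs was not run.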

Additional observations from a re-analysis of the deposited data

Results flagged for a closer look

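These results stood out because the temperature change of a gene differed between SB203580 and another treatment by limma's test of the difference itself, within the fit to all 27 libraries. Values are log2 differences between the change under SB203580 and that under the other treatment, positive where the change under SB203580 was the more positive. The comparisons share the SB203580 libraries.

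Against DMSO the differences were 1.11 for cyp26a1, 0.78 for slc6a19a.1 and -0.67 for cyp1a. Those with shared symbols or zeros were 1.01 for chchd4a, 1.79 for si:dkey-24l11.2, 2.10 for sybl1 and -3.05 for CR936363.1.

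Against AS1842856 the more positive changes under SB203580 were 2.27 for dus2, 2.17 for igfbp1a and 2.00 for notum1a, which encodes an enzyme that inactivates Wnt proteins. They were 1.87 for the chitinase gene chia.3, 1.83 for cad, which encodes the enzyme that starts pyrimidine synthesis, 1.82 for atad3 and 1.81 for mpv17l2, both of which encode mitochondrial proteins. The more negative changes were -2.74 for fbxo25, -2.74 for pcmtd2a, -2.37 for rpe65a, which belongs to the retinoid isomerase family, and -2.20 for ogal. They were -2.12 for the chemokine gene ccl27a, -2.10 for the glucokinase gene gck, -2.03 for icn2 and -2.01 for pde6ha. The call of ccl27a was lost without replicate 2 of 28C-AS, replicate 1 of 10C-AS or replicate 2 of 10C-SB, each left out alone, with adjusted p up to 0.073 by limma.

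Against PD0325901 the more positive changes were 2.33 for junbb, 2.18 for fosl1a, 1.70 for ier2a, 1.59 for ptgs2b and 1.56 for both egr3 and junba. They were 1.52 for f3b, a tissue factor gene of blood clotting, and 1.48 for admb, an adrenomedullin gene. The more negative changes were -1.81 for grifin, a galectin-related lens gene, -1.81 for cbln18, -1.66 for the small heat shock gene hspb9 and -1.64 for slc6a19a.2. They were -1.53 for the transglutaminase gene tgm2a, -1.50 for etv4, -1.42 for fkbp5 and -1.40 for the amino acid transporter gene slc7a10a. The call of fkbp5 was lost in 8 of 12 fits that each left out a single library, all but those without replicate 1 or 3 of 28C-SB, replicate 3 of 10C-SB or replicate 1 of 10C-PD, with adjusted p from 0.025 to 0.123, and with only the groups compared (adjusted p = 0.064).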

How the results depend on the processing

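The count of 3909 genes called in 10C-SB against 28C-SB was 3985 with TPM as deposited (50.2% of calls higher, against 57.9%), 3975 after quantile normalization, 4896 with a pseudocount of 0.1, 2793 among genes whose mean reached 5 scaled TPM, and 3707 to 3992 when single libraries were left out. The 7 differences from DMSO became 3 with only the groups compared and 4 to 7 when single libraries were left out. Of those 3, 2 were among the 7, si:dkey-24l11.2 and sybl1 (adjusted p = 0.011 for both by limma). In that model the adjusted p was 0.176 for cyp26a1, 0.124 for slc6a19a.1, 0.074 for cyp1a, 0.179 for chchd4a and 0.276 for CR936363.1. With single libraries left out, the differences numbered 2516 to 2630 from AS1842856 and 292 to 337 from PD0325901, and the DMSO calls 3699 to 4015. The median of splicing factors, 0.01, turned to -0.042 with TPM as deposited and -0.21 after quantile normalization, and that of endothelium markers, 0.02, to -0.028 with TPM as deposited; the cause was not tested. Scalings moved the median of all genes by under 0.1. Of 205 named changes, 182 kept their call under every setting tried and 0 reversed; of 41 named differences, 32 kept it and 0 reversed. In the SB203580 samples the correlations of same-number replicates were -0.009, -0.025 and 0.028. In the DMSO samples the same-number correlations were 0.227, 0.101 and 0.053, and the different-number ones ran from -0.178 to 0.096. Whether the SB203580 or the DMSO samples were paired is not known. A replicate block gave 3945 calls, 3899 of them shared, 8 differences from DMSO, 2704 from AS1842856 and 362 from PD0325901. Settings without both first DMSO libraries were chosen after seeing the data. Unknown depth limits the precision of low genes.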
